A study of Mus musculus with 11 samples.

Results

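Collagen genes were followed in neuronal nuclei of the mouse trigeminal ganglion, which holds the cell bodies of the sensory neurons of the face and mouth. Members were the rows of the count tables whose symbol is Col, a number, the letter a and a number, with at least 50 UMIs (unique molecular identifiers, counted transcripts) over the 7 libraries made on the 10x platform. Of 44 such symbols, 43 passed, out of 23295 genes listed in these tables. Just inside the minimum were Col17a1 with 105 UMIs, Col6a6 with 108 and Col6a4 with 111, and the symbol left outside was Col10a1 with 29.

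The control mice were wildtype C57BL in the labels (C57BL/6NCrl in the study's methods). IOT mice, also C57BL, had superficial branches of the infraorbital nerve cut (spared nerve injury in the labels) and were taken 2, 7, 21 or 75 days later, and facial injury mice, C57BL as well, had skin cuts on the cheeks and forehead and were taken at day 2. The scratch lesion mice were of an FVBN/C57BL/129 mix, and the study's methods describe them as carrying Fos-tTA and a tetO-driven mCherry-2A-Gnaq transgene. They scratch chronically for a reason that the study left unclear, and it detected no mCherry in their sensory neurons. All mice were older than 6 weeks, and males and females were pooled, with ganglia of several mice in each library. Each IOT time has 1 10x library, as have facial injury, scratch lesions and the control, so library levels were not tested against each other. Tests were of differences between nuclei within libraries, and of how these differed between kinds of injury or IOT days. A Drop-seq control, 4 libraries in 1 table, is given for comparison only and lists 42 of the members, without Col17a1.

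Ganglia were enriched for neuronal nuclei with an anti-NeuN antibody, and the authors removed non-neuronal clusters. The 10x libraries held 3634 to 8660 nuclei and 9135460 to 22003842 UMIs, with a median of 1747 to 4178.5 UMIs per nucleus, and pairs of them shared 16 to 92 barcodes. All 7 sensory neuron markers looked at were detected in every 10x library, with Isl1 at 163 to 231 and Piezo2 at 822 to 1376 CPM (counts per 1000000 UMIs). Markers of other cells were not at 0. The fibroblast list summed to 73.7 to 191.7 CPM, highest at IOT day 75, where 24.6% of nuclei held 2 or more UMIs of fibroblast or vascular genes, against 4.76 to 11.8% in the other 10x libraries. Of the defining markers, Dcn was at 14.5 to 35.9 CPM and Pecam1 at 3.24 to 10.3 CPM, while Dpt was counted in only 3 of the 7. With the satellite glia, Schwann and leukocyte lists included, 53.6 to 90.1% of nuclei held 2 or more UMIs of the same list. Such nuclei held 79.3% of all UMIs of the 10x libraries.

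Collagens are secreted or membrane proteins whose chains wind around each other into helices. Fibrillar collagens build the fibrils of connective tissue, basement membrane collagens form or anchor the sheets under epithelia and around Schwann cells and vessels, FACIT collagens sit on the surface of fibrils, and transmembrane collagens are held in the plasma membrane of the cell that makes them. In peripheral nerve most collagen is made by fibroblasts and Schwann cells, and growing axons contact it through integrins and discoidin domain receptors.

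Collagen transcripts were a small share of the RNA of these nuclei. The 43 members took 70983 UMIs, or 0.0567% of all UMIs of the 10x libraries, and 10 genes held 69.2% of them. Fibrillar genes gave 49.6% of the collagen UMIs over 11 members, basement membrane genes 18.3% over 9, FACIT genes 13.6% over 9, transmembrane genes 10.8% over 4, short chain and beaded filament genes 5.79% over 8, and the remaining pair, Col26a1 and Col28a1, 1.86%. Only 14 members reached a mean of 10 CPM over the libraries and 8 were under 2 CPM. Reads in introns were counted, so that a gene's CPM grows with its length as well as with its level.

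Col5a3, a chain of type V collagen, which sets the width of fibrils, had the highest mean at 66.2 CPM. Its lowest library was scratch lesions at 28.9 CPM, the median 65.8 and the highest IOT day 7 at 128.5. Col11a1, of the cartilage type XI collagen, and the minor fibrillar gene Col24a1 followed with means of 63.9 and 62.2 CPM. They lay between 41.9 and 82.2 and between 43.3 and 80.4 CPM over the 10x libraries, so that the ranges of these 3 genes overlapped. Within single libraries they could lie apart, as at IOT day 7 with Col5a3 at 128.5 and Col11a1 at 41.9 CPM. The order changed when the mean was divided by the span of the gene. Col5a3, with a gene of 45.0 kb, stayed highest at 1.47 CPM per kb, followed by Col16a1, Col7a1, Col1a2 and Col1a1, while Col11a1 came to 0.336 and Col24a1, spread over 259.5 kb, to 0.240 CPM per kb.

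In the other types the highest member by mean was Col4a2 for basement membranes, Col25a1 for the transmembrane group, Col16a1 for FACITs and Col6a3 for beaded filaments. Col4a2, which with Col4a1 makes the common type IV network, was at 22.6 CPM in its lowest library (IOT day 75), 34.4 at the median and 49.1 at IOT day 7. Col25a1, a neuronal membrane collagen that motor axons of the mouse need to enter muscle, ranged from 26.1 over 32.1 to 53.0 CPM. Col16a1 ranged from 28.03 (scratch lesions) over 35.8 to 43.8 CPM (control), and was at 77.0 CPM in the Drop-seq control. Col6a3, the long chain of type VI collagen, went from 6.62 over 10.3 to 13.3 CPM. Col28a1, known in the mouse from the glia of peripheral nerve, went from 4.79 over 8.05 to 9.23 CPM. In this set only Col16a1 and Col25a1 had a Drop-seq value outside the range of the 10x libraries by more than 1.5 times, with Col25a1 at 13.2 CPM there.

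The low members were spread over all types. Means between 2 and 10 CPM were found for Col6a2, Col18a1, Col15a1, Col8a1, Col1a1, Col3a1, Col11a2, Col4a4, Col27a1, Col4a3, Col20a1, Col9a1, Col14a1, Col13a1, Col4a5, Col4a6, Col26a1, Col12a1, Col6a1 and Col22a1 besides Col28a1. Under 2 CPM were Col9a2, Col6a5, Col17a1, Col9a3, Col2a1, Col6a6, Col8a2 and Col6a4. The chains of bulk connective tissue, Col1a1, Col1a2 and Col3a1, were at 7.42, 16.6 and 6.58 CPM. They ranked 20, 12 and 21 of 43 by mean CPM, and 5, 4 and 13 per kb.

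**Figure D1:**
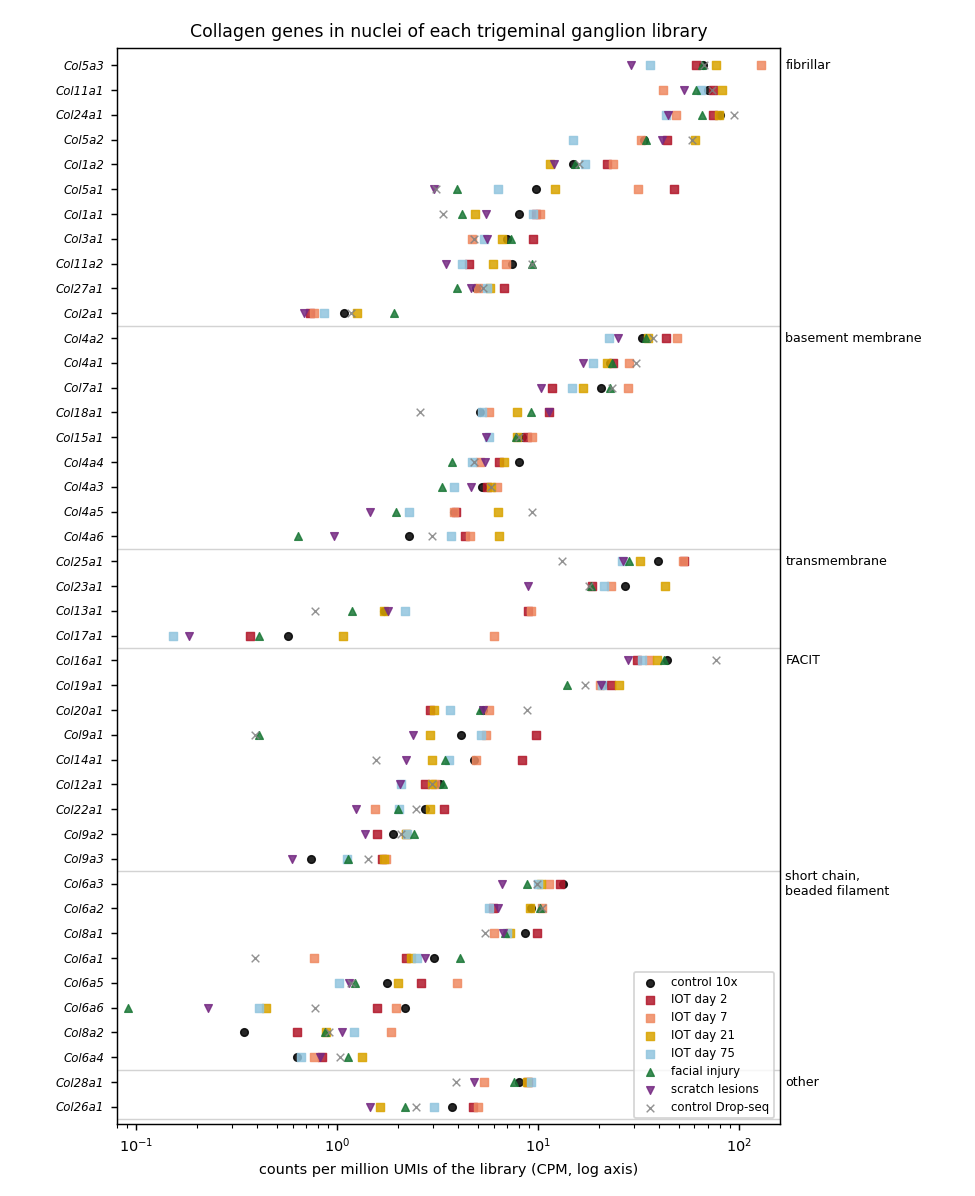
CPM of each of the 43 collagen genes (rows, grouped by structural type and ordered by mean) in each library (symbols), on a log axis. Col5a3, Col11a1 and Col24a1 lie highest and overlap each other, and Col5a1 spreads from 3.01 CPM in scratch lesions to 47.7 CPM at IOT day 2.

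A few members differed widely between libraries. Col5a1, the main chain of type V collagen, was at 9.76 CPM in the control and at 47.7, 31.5, 12.1 and 6.34 CPM at IOT days 2, 7, 21 and 75. It was at 3.95 CPM in facial injury, 3.01 in scratch lesions and 3.10 in the Drop-seq control, so that the first 2 IOT times stood above every other library. Col13a1, a membrane collagen of the neuromuscular junction, was also highest at these times, with 8.86 and 9.19 CPM at days 2 and 7 against 1.18 to 2.18 CPM in the other 10x libraries. Col17a1, the hemidesmosome collagen of skin, reached 6.02 CPM at day 7 only and was between 0.152 and 1.07 CPM elsewhere. Col9a1, of cartilage type IX collagen, went from 0.409 CPM in facial injury to 9.76 at day 2. Some markers of other cells were high in the same 2 libraries. The vascular list summed to 67.8 and 63.7 CPM at IOT days 2 and 7 and to 36.6 to 45.8 CPM in the other 10x libraries. Of its 7 genes, Flt1 and Pecam1 were above every other library at both times, with Flt1 at 24.97 and 24.5 against 4.22 CPM in the control, while the endothelial genes Cdh5 (1.94 and 1.204 against 2.23 CPM) and Kdr (1.94 and 1.09 against 1.66 CPM) were not. Of the 7 fibroblast markers only Pdgfra was, at 9.70 and 13.5 against 4.57 CPM, and that list was highest at day 75, where Col5a1 was low. The leukocyte list summed to 164.9 and 168.7 CPM at days 2 and 7 but also to 126.7 at day 75, and to 38.4 to 57.2 CPM elsewhere. The Schwann cell list was highest at days 2 and 7 (1114 and 1370 CPM, against 541 to 1012 CPM in the other 10x libraries). The satellite glia list was lowest at these times (370 and 365 CPM, against 478 to 939 CPM). Of the Col5a1 UMIs, 18.6% lay in nuclei with fibroblast or vascular markers, against 13.9% of all UMIs. The part of other cells in the levels of Col5a1 and Col13a1 was not tested.

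Summed over the members, collagen came to 619.8 CPM in the control, 689.1, 693.8, 666.1 and 453.9 CPM at IOT days 2, 7, 21 and 75, 544.7 in facial injury and 416.6 in scratch lesions. Fibrillar genes made the largest part in each library. The members with the largest share of UMIs in nuclei with fibroblast or vascular markers were Col1a1 (24.0%), Col3a1 (22.3%), Col4a6 (20.6%), Col8a2 (20%) and Col1a2 (19.9%). The members with the highest means were at or below the 13.9% of all UMIs, with Col5a3 at 13.01%, Col11a1 at 13.8%, Col24a1 at 11.7%, Col5a2 at 12.1% and Col25a1 at 12.4%.

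Damaged neurons were marked by Atf3, a transcription factor switched on by axon injury, and the semaphorin Sema6a. A nucleus with 2 or more UMIs of these genes was called marked, and one with none unmarked. Marked nuclei made up 17.9, 10.8, 9.05 and 8.31% at IOT days 2, 7, 21 and 75, 2.32% in facial injury, 4.10% in scratch lesions and 2.56% in the uninjured control. Only 3 control nuclei held a UMI of both genes, against 442 at IOT day 2. The mark moved with neuron size and depth. Among nuclei that could be scored for a class (below), 83.7% of the marked control nuclei were of large diameter classes against 34.5% of the unmarked. At IOT days 2, 7, 21 and 75 these shares were 50.6 against 32.2%, 37.4 against 33.8%, 59.9 against 34.0% and 66.5 against 28.2%. Median UMIs were 4188 in marked and 3048.5 in unmarked nuclei at day 2, and marked nuclei were deeper in every other 10x library too.

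Counts were summed over marked and over unmarked nuclei of each injury library and compared with library as a block (edgeR, p adjusted by Benjamini-Hochberg over all genes tested). In the 4 IOT libraries 6 members rose in marked nuclei and 2 fell, of 40 tested. Over all 15845 genes tested 16.2% were called, 8.92% higher and 7.3% lower, so that 8 of 40 members is close to this background. The median log2 fold change was 0.01 over the members and -0.01 over all genes. Col2a1, Col6a4 and Col8a2 were too low to be tested. By type, 3 of 10 fibrillar genes rose and 1 fell, 1 of 9 basement membrane and 1 of 4 transmembrane genes rose, 1 of 9 FACITs fell, and 1 of 6 short chain and beaded filament genes rose. With nuclei that held fibroblast or vascular markers left out, 4 members rose and 3 fell, where 1336 of all 15578 genes tested rose and 1117 fell. The calls of Col4a1 and Col5a1 were lost.

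Col5a3 had the largest difference. It was at 104.2 CPM in marked and 45.6 in unmarked nuclei at day 2, 376.0 and 80.2 at day 7, 191.4 and 60.3 at day 21, and 74.0 and 31.2 at day 75. The marked nuclei were higher in every library, most at day 7, though the groups overlap across days. The log2 fold change was 1.64 ± 0.17 (SE), or 3.13-fold, with an adjusted p of 9.76e-06. In the control the marked nuclei were at 80.4 and the unmarked at 64.7 CPM. The difference also held within nuclei scored large, at 0.89 (adjusted p = 3.79e-05), and within those scored small, at 1.82 (adjusted p = 4.18e-20). Variance was shared over genes within each fit, so the p-values of different fits cannot be compared with one another. The gene lies on the minus strand at chr9:20770050-20815067 (GRCm38, GENCODE vM21). The 250 bases before its start in RefSeq (GRCm38.p6, chr9:20815068-20815317, minus strand) are shown because it is the member with the largest difference. A GC box (GGGCGG, searched on both strands) that starts at base -4 runs past the end of the stretch. GC boxes wholly inside it are in capitals:
Col5a3: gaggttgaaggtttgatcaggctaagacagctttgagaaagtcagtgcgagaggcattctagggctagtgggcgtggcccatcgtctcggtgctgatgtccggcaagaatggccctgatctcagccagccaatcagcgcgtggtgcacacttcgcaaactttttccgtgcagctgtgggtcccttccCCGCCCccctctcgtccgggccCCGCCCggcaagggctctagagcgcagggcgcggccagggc

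Motifs were looked up in windows of 300 bases, 250 before and 50 after each start, which matched 34 of the 43 members. The AP-1 motif (TGANTCA), which Atf3 and Jun proteins are known to bind, was in 7.81% of all 32851 windows and in 1 member, Col6a1. The CRE (TGACGTCA) was in 1.79% of all windows and in 1 member, Col24a1. The GC box was in 35.7% of all windows and in 62.2% of the 37 windows of the 34 matched members, 22 of which held it. Of the 8 members called in the IOT comparison, 7 had a window, and 6 of these held a GC box.

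Col5a2, the chain that pairs with Col5a1 in type V collagen, was at 72.3 CPM in marked and 30.9 in unmarked nuclei at day 2, 67.0 and 25 at day 7, 105.4 and 45.3 at day 21 and 32.1 and 11.1 at day 75. It was the most evenly raised member, between 2.33-fold and 2.90-fold in each library, with a log2 fold change of 1.37 ± 0.11 (adjusted p = 1.24e-06). It was further apart in the control, at 108.7 in marked and 27.1 CPM in unmarked nuclei, or 4.02-fold. Within nuclei scored large the log2 fold change was 1.13 (adjusted p = 2.08e-08), and within those scored small also 1.13 (adjusted p = 0.000486).

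Col25a1 was at 78.3 and 42.8 CPM at day 2, 87.5 and 47.4 at day 7, 47.7 and 26.7 at day 21 and 49.5 and 21.4 at day 75, always higher in marked nuclei and without overlap between the groups. Its log2 fold change was 0.99 ± 0.10 (adjusted p = 1.08e-05), and in the control the levels were 116.2 and 31.2 CPM. It held within nuclei scored large, at 0.88 (adjusted p = 2.22e-05), and missed the threshold within those scored small, at 0.59 (adjusted p = 0.0724). Col6a3 was at 17.5 and 10.1 CPM at day 2, 29.4 and 7.51 at day 7, 20.02 and 7.46 at day 21 and 19.6 and 7.92 at day 75, again without overlap. Here the log2 fold change was 1.35 ± 0.19 (adjusted p = 0.000188), with 35.7 and 11.4 CPM in the control. It was 1.88 within nuclei scored small (adjusted p = 0.00211) but 0.47 within those scored large (adjusted p = 0.401).

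Col4a1 and Col5a1 rose less. For Col4a1 marked nuclei were at 25.6, 33.5, 27.1 and 29.0 CPM at days 2, 7, 21 and 75, against 21.8, 26.01, 18.1 and 16.2 CPM in unmarked nuclei. The log2 fold change was 0.54 ± 0.13 (adjusted p = 0.00986), with 56.6 against 19.6 CPM in the control. Its partner Col4a2 did not pass, at 0.31 ± 0.11 (adjusted p = 0.0609). For Col5a1 marked nuclei were at 66.8, 36.8, 14.7 and 6.69 CPM and unmarked at 41.9, 31.2, 11.9 and 6.71 CPM, so that both groups were high at days 2 and 7 and level at day 75. The log2 fold change of 0.46 ± 0.14 (adjusted p = 0.0393) was called in 1 of the 6 fits that left out a library, the one without IOT day 75. It was 0.26 (adjusted p = 0.507) without IOT day 2, and -0.38 (adjusted p = 0.673) within nuclei scored large.

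The members that fell were Col16a1 and Col11a1. Col16a1, a FACIT found at the edges of fibrils and in basement membranes, was at 15.6 CPM in marked and 35.7 in unmarked nuclei at day 2, 10.6 and 41.0 at day 7, 15.3 and 41.5 at day 21 and 24.97 and 34.3 at day 75. The groups did not overlap, and the log2 fold change was -1.10 ± 0.17 (adjusted p = 0.000333). In the control it was at 29.8 and 44.9 CPM. Within nuclei scored small it was -0.96 (adjusted p = 0.0144) and within those scored large -0.59 (adjusted p = 0.287). Col11a1 was at 43.8 and 81.7 CPM at day 2, 16.3 and 46.4 at day 7, 51.8 and 86.3 at day 21, but at 64.2 and 63.0 at day 75. Its log2 fold change was -0.63 ± 0.16 (adjusted p = 0.0116). The call was lost without IOT day 2 and without IOT day 21, at an adjusted p of up to 0.115, and the difference was -0.22 and -0.06 within nuclei scored large and small.

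**Figure D2:**
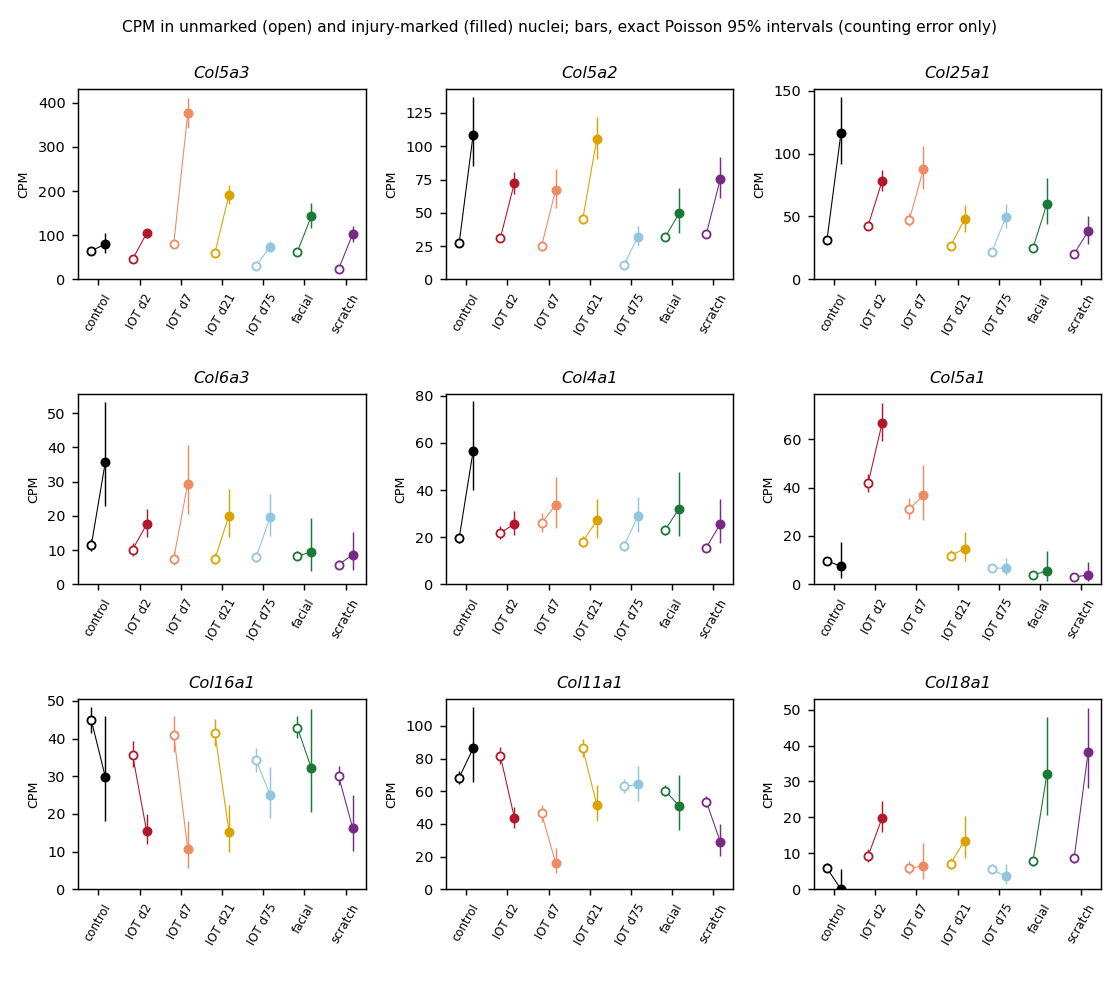
CPM in unmarked (open circles) and marked (filled circles) nuclei of each 10x library for the 8 members called in the IOT comparison and Col18a1; bars are exact Poisson 95% intervals, which cover counting error only. Col5a3 parts most at IOT day 7 (376.0 against 80.2 CPM), and in the control the marked nuclei are 4.02, 3.72 and 2.89 times the unmarked for Col5a2, Col25a1 and Col4a1, more than in any IOT library.

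A stricter choice of injured nuclei gave a different picture for some members. With a UMI of both Atf3 and Sema6a required, Col5a3 was at 1.92, Col5a2 at 1.0, Col25a1 at 0.66, Col6a3 at 1.0 and Col5a1 at 0.79 on the log2 scale, all still called, while Col4a1 fell to 0.09 (adjusted p = 0.831). Col11a1 went to -1.53 and Col16a1 to -1.14. Col18a1, source of endostatin, was called with 1.10 and Col19a1 with -1.16. In nuclei of the cluster with the injury genes, found without the collagen genes, Col5a3 stood at 2.27 and Col11a1 at -1.99, Col18a1 at 1.38 and Col19a1 at -1.57.

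**Figure D3:**
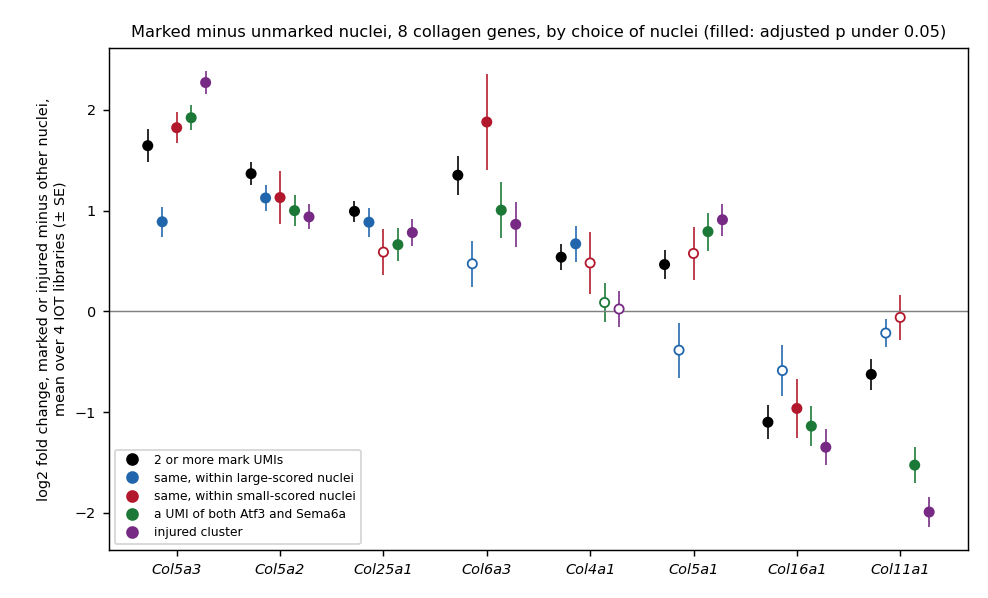
Log2 fold change (± SE, mean over the 4 IOT libraries) of 8 collagen genes for 5 choices of nuclei (colors); filled circles have an adjusted p under 0.05. Col5a3, Col5a2 and Col25a1 stay above 0 and Col16a1 below 0 in each, and Col4a1 is near 0 for the stricter choices (0.09 and 0.02).

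In the libraries of the milder injuries 4 of 40 members were higher in marked than in unmarked nuclei, and none was lower. This compares nuclei within a library, and a difference from the control was not tested. Over all genes tested, 2.63% were called in this contrast, 1.38% higher and 1.25% lower. Col18a1 was at 32.2 CPM in marked and 7.72 in unmarked nuclei after facial injury, and at 38.2 and 8.73 CPM with scratch lesions, a log2 fold change of 2.06 ± 0.31 (adjusted p = 0.00242). Col5a3 was at 143.4 and 62.7 CPM after facial injury and 102.2 and 23.2 with scratch lesions (1.61 ± 0.26, adjusted p = 0.00395). Col25a1 (1.04 ± 0.18, adjusted p = 0.00523) and Col5a2 (0.90 ± 0.17, adjusted p = 0.0109) were the others, both also among the IOT calls. Col25a1 turned to -0.24 with both mark genes required, -0.91 in the cluster with the injury genes and -0.28 within nuclei scored small. The calls rest on 2 libraries, with 201 and 321 marked nuclei. With either left out, a single library of the milder injuries remained, and fewer members and fewer of all genes tested passed.

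No member had an effect of the mark that differed between IOT and the milder injuries (0 of 40 in edgeR, 4 at an unadjusted p under 0.05, and 0 with DESeq2, against 0.0379% of all genes, 0.0252% higher and 0.0126% lower). Other choices of nuclei changed this. With both mark genes required Col24a1 passed, where 0.557% of all genes did, and in the cluster with the injury genes Col18a1, Col24a1 and Col25a1 passed, where 1.66% did. With the 2-UMI mark the largest difference was that of Col18a1, at -1.37 ± 0.39 with an unadjusted p of 0.00289 and an adjusted p of 0.655. At IOT days 2, 7, 21 and 75 Col18a1 was at 19.9, 6.54, 13.5 and 3.57 CPM in marked nuclei and at 9.26, 5.78, 7.04 and 5.51 CPM in unmarked nuclei.

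Against the control, which has 1 library and is assumed to vary like the others, again no member passed (0 of 43 in edgeR, 9 at an unadjusted p under 0.05, 0 with DESeq2, against 0.0121% of all genes). The effect of the mark was higher after IOT for Col5a3 by 1.37 ± 0.43 on the log2 scale (adjusted p = 0.311). It was lower after IOT for Col19a1 (-1.66 ± 0.42, adjusted p = 0.211), Col4a2 (-0.97 ± 0.27, adjusted p = 0.264), Col25a1 (-0.86 ± 0.24, adjusted p = 0.27) and Col4a1 (-0.95 ± 0.32, adjusted p = 0.352). Thus no rise with the mark, that of Col5a3 included, was shown to exceed that in uninjured ganglia when all libraries were fitted. Without IOT day 75, 5 members passed, Col5a3, Col11a1, Col18a1, Col19a1 and Col6a6, where 2.07% of all genes did. A trend over the IOT days was found for none of 37 members (edgeR, 3 at an unadjusted p under 0.05, 0 with DESeq2, against 0% of all genes), and for 5 without IOT day 2, where 4.7% of all genes passed.

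Other genes of collagen handling were counted beside the members. Of 27 biosynthesis and processing genes tested in the IOT contrast, 4 rose and 2 fell, of 11 receptors 2 rose and 1 fell, and of 9 degradation genes 2 rose and 1 fell, against 8.92% of all genes higher and 7.3% lower. Loxl2, a crosslinking lysyl oxidase, was at 2.63, 22.9, 9.42 and 3.57 CPM in marked nuclei at days 2, 7, 21 and 75 and at 1.22, 1.16, 0.587 and 0.603 CPM in unmarked nuclei (log2 fold change 3.07 ± 0.48, adjusted p = 0.000497). Bmp1, which trims procollagen, rose by 1.12 ± 0.14, its relative Tll1 fell by 0.79 ± 0.13 and the procollagen protease Adamts14 rose by 0.64 ± 0.19. Among receptors the common integrin chain Itgb1 rose by 0.78 ± 0.11 and Itga1 by 0.37 ± 0.12, while Itga2 fell by 1.44 ± 0.31. The membrane protease Mmp16 was at 1157, 994, 1147 and 327 CPM in marked nuclei against 236, 143, 226 and 136 CPM (2.23 ± 0.18, adjusted p = 1.14e-06), and the inhibitor Timp3 rose by 1.31 ± 0.22. The cathepsin gene Ctsl fell by 0.37 ± 0.11. As for the members, these effects were not shown to differ from those of the mark in the control. There Mmp16 was at 275 CPM in marked and 182 in unmarked nuclei, and Bmp1 at 34.3 and 20.9 CPM. The IOT effect minus the control effect was 1.67 ± 0.41 for Mmp16, 0.45 ± 0.37 for Bmp1 and 1.69 ± 1.96 for Loxl2. Loxl2 rested on 8 to 28 UMIs in marked and 7 to 14 in unmarked nuclei of an IOT library.

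For neuron classes, each unmarked nucleus was scored with markers that are not collagens and given a class where 1 score led. This classed 63.8 to 66.2% of the unmarked nuclei of each 10x library. The names follow the study. C1/2 holds nuclei with the cold channel gene Trpm8, C3 those with Cdh9 and Fam19a4 (low-threshold touch neurons), C4/C6 large those with S100b and Nefh (thick myelinated fibers), C5 those with Cadps2 and Ntrk2, C7-10 the peptidergic Tac1 and Trpv1 nuclei, C11 those with Il31ra and Nppb, and C12 and C13 those with Mrgpra3 and Mrgprd. These classes are ranges of a score and not fixed types. Within 0.1 of a threshold lay 19.0% of the C4/C6 large nuclei and 6.52 to 13.5% in the others.

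Of 23 members abundant enough to be tested, 22 differed from the mean of the other classes in at least 1 class, as did 80.1% of all genes tested. Of the 184 pairs of member and class, 73 were called, 36 higher and 37 lower. For all genes 33.2% of the pairs were called, 17.2% higher and 16% lower. In C4/C6 large 19 of 23 members were called, 9 higher and 10 lower, where 54.8% of all genes were called, 27.1% higher and 27.7% lower. C13 had 11 members lower and none higher, against 44% of all genes, 22% in each direction. In C1/2 5 members were higher and 6 lower (all genes 35.2%, with 17.2% higher and 18% lower), and in C7-10 5 were higher and 4 lower (37.6%, with 18.7% higher and 18.9% lower). C5 had 5 higher and 2 lower (33%, with 18.1% higher and 14.9% lower), and C3 had 4 higher and 3 lower (22.2%, with 12.6% higher and 9.58% lower). C11 had 5 higher and none lower (17.9%, with 9.83% higher and 8.05% lower), and C12 had 3 higher and 1 lower (20.8%, with 11.8% higher and 9% lower). Levels below are CPM over the unmarked nuclei of a class, and log2 fold changes are against the mean of the other classes.

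The transmembrane gene Col23a1 marked C5. It was at 162 CPM there in the control, at 98.8, 121, 189 and 135 CPM at IOT days 2, 7, 21 and 75, at 124 CPM in facial injury and 55.0 in scratch lesions. Every one of these lay above the highest value of any other class in any library, 45.7 CPM. The means were 126.4 CPM in C5 and 8.67 to 18.9 CPM in the other classes (3.39 ± 0.11, adjusted p = 1.26e-38). Col19a1, which in the mouse is made by brain interneurons and takes part in synapse formation, was high in both large fiber classes, with a median of 56.9 CPM in C5 (38.1 to 70.8) and 37.5 in C4/C6 large (28.3 to 45.8). The other classes had means of 5.63 to 11.4 CPM. Against the rest it was higher by 2.62 ± 0.16 in C5 (adjusted p = 4.71e-24) and 1.85 ± 0.13 in C4/C6 large (adjusted p = 7.88e-21).

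Several members were highest in C4/C6 large. Col6a3 had a median of 21.0 CPM (16.6 to 37.1) there and means of 2.85 to 6.43 CPM in other classes, with no overlap of libraries (2.53 ± 0.17, adjusted p = 1.14e-21). Col5a2 had a median of 81.4 CPM, with 19.5 at IOT day 75 and 107 at day 21 as its extremes, and means of 13.2 to 29.8 CPM elsewhere (2.04 ± 0.10, adjusted p = 1.53e-27). Its libraries overlapped those of other classes, which reached 49.95 CPM. Col4a2 (45.2 CPM, 1.09 ± 0.10) and Col4a1 (30.6 CPM, 0.97 ± 0.11) were highest in this class, though single libraries of other classes overlapped. So was Col25a1 with a mean of 49.8 CPM against 22.4 to 30.1 (1.08 ± 0.10, adjusted p = 3.68e-14). Of the 6 members that rose with the mark, Col5a2, Col25a1, Col6a3 and Col4a1 were highest in C4/C6 large, and Col5a3 and Col5a1 were not. For all genes, 27.1% were called higher in C4/C6 large. Among the members called lower there, those with their lowest mean of all classes in C4/C6 large were Col8a1, Col6a2, Col7a1, Col28a1, Col1a2, Col3a1 and Col4a3.

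The small fiber classes had members of their own. In C12 the anchoring fibril gene Col7a1, known from skin blistering disease, was at 89.6 CPM in the control, 56.7, 202, 88.9 and 72.6 CPM at IOT days 2, 7, 21 and 75, 88.8 in facial injury and 52.0 in scratch lesions. No library of another class passed 38.7 CPM, and the log2 fold change was 2.82 ± 0.15 (adjusted p = 2.94e-27). Col18a1 stood apart in C11, with a median of 41.1 CPM between 18.2 at IOT day 75 and 59.2 in the control, on 6 to 24 UMIs per library (2.47 ± 0.25, adjusted p = 1.13e-13). The highest value elsewhere was 16.9 CPM. C11 also held the highest means of Col1a2 (30.7 CPM) and Col28a1 (16.1 CPM), and C7-10 those of Col5a3 (79.4 CPM), Col6a2 (19.96) and Col8a1 (15.3). In C7-10 Col11a1 was lowest, with 14.4 to 26.9 CPM over the libraries (-1.23 ± 0.13, adjusted p = 4.16e-12). C13 had the lowest means of Col24a1, Col16a1 and Col5a3. Col24a1 was at 10.8 to 27.0 CPM there against means of 38.1 to 81.4 CPM elsewhere (-1.67 ± 0.12, adjusted p = 4.29e-19).

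In C1/2, Col4a3 and Col4a4, chains of the type IV network of kidney glomeruli, were high together. Col4a3 was at 30.1 CPM in the control, 19.1, 22.7, 49.6 and 14.2 CPM at IOT days 2, 7, 21 and 75, 29.1 in facial injury and 38.0 in scratch lesions. Col4a4 was at 32.8, 16.7, 22.7, 25.9, 30.5, 23.0 and 41.8 CPM in the same order, above every library of the other classes. Their means were 29.0 and 27.6 CPM in C1/2, and the other classes had 2.00 to 6.10 and 3.34 to 6.24 CPM. The log2 fold changes were 3.30 ± 0.25 (adjusted p = 9.18e-19) and 2.71 ± 0.21 (adjusted p = 1.18e-18).

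These genes are neighbors that start away from each other. Type IV genes lie head to head in pairs, and Col4a4 (minus strand) and Col4a3 (plus strand) on chromosome 1 have 71 bases between them, while the starts of Col4a1 (minus) and Col4a2 (plus) on chromosome 8 overlap by 22 bases. Both shared stretches are shown because their genes were high in the same class, C1/2 and C4/C6 large. They are from RefSeq GRCm38.p6, at chr1:82586850-82586920 on the minus strand and chr8:11312805-11312826 on the plus strand, with any GC box in capitals:
Col4a4 to Col4a3: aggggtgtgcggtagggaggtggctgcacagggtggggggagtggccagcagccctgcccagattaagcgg
Col4a1 and Col4a2: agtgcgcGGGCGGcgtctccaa

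The GC box was found in the short overlap and not in the stretch between Col4a4 and Col4a3. The third pair, Col4a5 and Col4a6, starts 1309 bases apart on the X chromosome and was too low to be tested by class. Col3a1 and Col5a2 lie 24615 bases apart on chromosome 1, and in C4/C6 large Col5a2 had its highest and Col3a1 its lowest mean. Other genes overlap 15 members on the same strand and 17 on the opposite strand, and whether the counting used strand is not stated, so that reads of the overlapping stretches cannot be assigned with certainty.

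**Figure D4:**
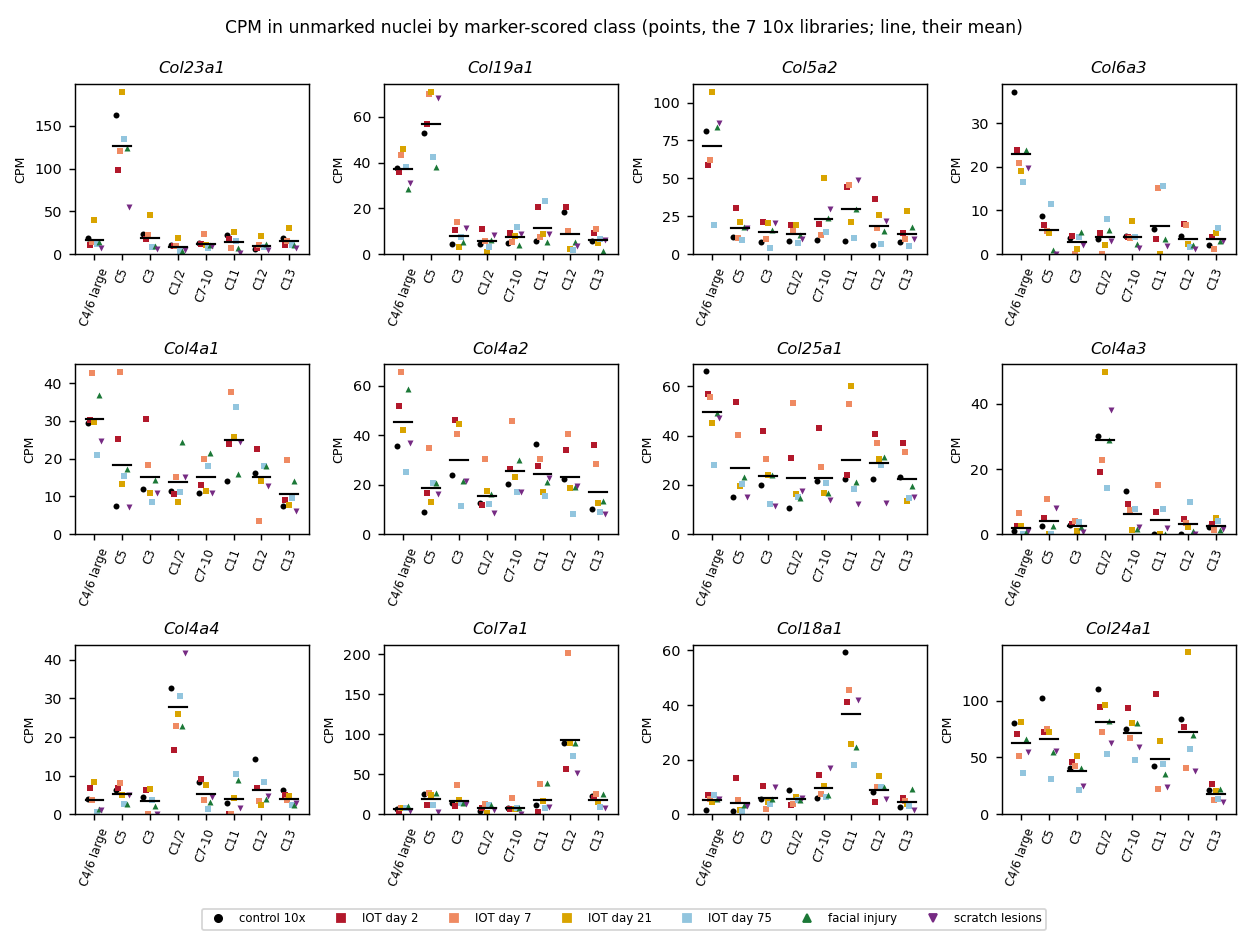
CPM in unmarked nuclei by class for 12 collagen genes; points are the 7 10x libraries and the line is their mean. Col23a1 stands out in C5 (126.4 CPM), Col7a1 in C12 (93.0 CPM), Col4a3 and Col4a4 in C1/2 (29.0 and 27.6 CPM), Col18a1 in C11 (36.6 CPM) and Col6a3 in C4/C6 large (23.0 CPM).

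With the classes joined by size, 22 of 32 members tested differed between large (C4/C6 large and C5) and small nuclei, 12 higher and 10 lower in large nuclei, where the background was 55.5% of all genes, 29.2% higher and 26.3% lower. Col19a1 (2.57 ± 0.14), Col6a3 (2.39 ± 0.17), Col5a2 (1.87 ± 0.13) and Col23a1 (1.74 ± 0.12) led the genes higher in large nuclei, and Col4a3 (-1.93 ± 0.31), Col6a2 (-1.40 ± 0.21), Col4a4 (-1.25 ± 0.25) and Col8a1 (-1.17 ± 0.17) those lower. Of the types, 4 of 10 fibrillar genes were higher and 2 lower, 3 of 9 basement membrane genes higher and 4 lower, and both transmembrane genes tested were higher. Col5a3, the member most raised with the injury mark, did not pass between sizes, at -0.06 ± 0.09 (adjusted p = 0.591). The 12 class and member pairs with the lowest adjusted p kept their calls under each alternative that could test them.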

How the data were processed

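Per the labels and the study's methods, ganglia were kept in RNAlater, frozen and homogenized, and neuronal nuclei were enriched and made into 10x or Drop-seq libraries. The deposited values are whole UMI counts for each gene in each nucleus. To make them the authors used mm10, kept intronic reads, and dropped nuclei by gene number and mitochondrial share. STAR 2.5.3a, Cell Ranger 2.1.0, bcl2fastq 2.17 and Seurat 2 stand in the submitters' processing notes. The annotation version was not given in the sources used here. The 8 tables hold 40359 nuclei of 11 samples, and all sample columns were used.

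The members and lists were chosen with earlier results of these data known. Every member is named. Values in each library are given for members called in the IOT contrast, for up to 12 members ranked by adjusted p in the class contrasts, and for the highest member of each type. Other genes are markers, or up to 4 called genes of a collagen pathway list. Names and coordinates of all 43 members were found in GENCODE vM21 (GRCm38).

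CPM are UMIs per 1000000 UMIs of the nuclei summed, with exact Poisson 95% intervals. Class scores were mean z values over marker genes that are not collagens (0.5 or more, with a lead of 0.25). UMI counts were summed over nuclei per library and state or class, since nuclei are not replicates, and were fitted with edgeR 4.0.16 (quasi-likelihood, TMM, low-count filter, library as a block, threshold 0.05 on p adjusted over all genes). Residual degrees of freedom were 4 for the mark, 2 for the trend, 42 for classes and 6 for sizes. Marker genes and genes missing from a table compared were left out, and 17612 genes were in all 7 10x tables. The SE of a log2 fold change was taken from its F statistic (its size divided by the root of F). Each sum is of 1 library of pooled mice. The p-values rest on the spread between libraries of different days and injuries, with variance estimates shared over genes. They do not measure the spread between mice. On simulated counts with known changes, the fit for the difference from the control missed most of them. No doublet caller was run, and leaving out the deepest nuclei was an alternative. Others were DESeq2 1.42.0, no TMM, median-ratio size factors, no filter, no block, each library left out, other rules for the mark (thinning to 1143 UMIs, 1 or 3 UMIs, both genes, a cluster), Leiden classes, and nuclei without markers of other cells. Choices after seeing the data were the 3-UMI mark, the stricter class score, leaving out nuclei with fibroblast or vascular markers, and comparing marked with unmarked nuclei within large or small classes. No test used the Drop-seq table.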

Additional observations from a re-analysis of the deposited data

Results flagged for a closer look

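Of 20 groups of library values looked at, 3 held 1 library far from the others, where chance alone gives about 1 in 20. The ratio of Col25a1 in marked to unmarked nuclei was 2.31 at IOT day 75 and 1.78 to 1.84 at the other IOT times. The level of Col7a1 in C12 nuclei was 202 CPM at IOT day 7, on 60 UMIs, and 52.0 to 89.6 CPM in the other 10x libraries. The level of Col6a3 in C4/C6 large nuclei was 37.1 CPM in the control and 16.6 to 24.0 CPM in the injury libraries.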

How the results depend on the processing

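Every fit compared nuclei within libraries, with library as the block. Without the block 1 member rose and 1 fell in the IOT contrast, where 178 of all 15845 genes tested rose and 87 fell. For the milder injuries 0 members and 0 of all genes were called. The class pairs called were 44, and fewer of all genes were called in every class too. With each library left out in turn, 5 to 8 members rose and 1 to 2 fell after IOT (1 without IOT day 2 and 1 without IOT day 21). Of all genes, 833 to 1729 rose and 695 to 1431 fell in these fits. Up to 4 members were called for the milder injuries, fewer with facial injury or scratch lesions left out, as for all genes. For IOT against the control 0 to 5 were called (5 without IOT day 75, where 2.07% of all genes were). For the trend 0 to 5 were called (5 without IOT day 2, where 4.7% of all genes were). With an IOT library left out, 0 were called for IOT against the milder injuries. There were 65 to 72 class pairs and 21 to 25 members for size. For size 3315 to 3738 of all genes were higher and 3240 to 3785 lower. The difference from the control was not run without the control. Without nuclei holding markers of other cells, 16 members could be tested after IOT: 3 rose and 1 fell, 1 was called for the milder injuries, 20 class pairs and 9 for size. Of all 10395 genes tested there, 544 rose and 467 fell after IOT, and 93 rose and 58 fell for the milder injuries. For size 1981 of 9345 genes were higher and 2278 lower. Within nuclei scored large 0 fell after IOT and 1 was called for the milder injuries. Of all 12545 genes tested there, 193 fell after IOT, and 65 rose and 61 fell for the milder injuries. Within those scored small 1 fell and 2 were called. Of all 13655 genes tested there, 834 fell after IOT, and 269 rose and 176 fell for the milder injuries. In the injured cluster 4 fell, as did 1760 of all 13945 genes tested. There 3 differed between IOT and the milder injuries, where 1.66% of all genes did. With both mark genes required, 1 differed between these injuries, where 0.557% of all genes did. For that mark 1 differed from the control, where 86 of all 16589 genes were higher and 6 lower. The control then had 3 marked nuclei, and the median difference over all genes was 6.45. With 3 mark UMIs 2 differed from the control, where 50 of all 16751 genes were higher and 16 lower. A minimum of 25 UMIs gave 44 members and 100 gave 43.

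Directions turned after IOT for Col19a1 (-1.16 with both genes, -1.57 in the injured cluster, against 0.21), Col23a1 (-0.47 in the cluster) and Col5a1 (-0.38 within nuclei scored large), and for Col25a1 after the milder injuries (-0.24 with both genes, -0.91 in the cluster, -0.28 within nuclei scored small). Between sizes Col16a1 turned to 0.11 with Leiden classes and 0.068 with the stricter score. With Leiden classes these turned too: in C3 Col11a1 (-0.53), Col16a1 (-0.73) and Col4a2 (-0.42), in C5 Col11a1 (-0.57) and Col1a2 (-0.043), and Col16a1 in C12 (-0.63) and C4/C6 large (0.16). The cause was not tested. No other value past the threshold under either setting changed sign, although values short of it under both did. Members under 2 CPM rest on 105 to 245 UMIs over 7 libraries, and differences in them were often not detectable at this depth. Several members were counted on under 10 UMIs in the marked nuclei of a library.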
